A study of Homo sapiens with 15 samples.

Results

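KO-4 is a clone of HCT116, a human colorectal carcinoma line, labelled bktRNA1-/-, and it was compared with the wild-type HCT116 line (WT), labelled wild type for the same gene. Each group had 3 libraries of polyadenylated RNA, which the series describes as coming from independent experiments, so 6 of the 15 libraries of the series entered the comparison. No treatment was listed for either group. The other libraries belong to the bktRNA1-/- clones KO-1, KO-2 and KO-3, which are used here only to show where KO-4 differs. KO-4 is 1 isolate and WT is 1 line, so differences tied to this clone's own history and differences tied to the genotype cannot be told apart in this comparison. The level of bktRNA1 itself was not analysed here, and the genotype rests on the labels.

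The deposited table of KO-4 against WT listed 101710 introns, out of 111143 listed in any table of the series. Members were the 24269 introns with a mean of at least 10 reads for retention and at least 10 reads for splicing over the 6 libraries. The percent retained is the number of reads that include the intron, divided by the length those reads could come from, as a share of that value plus the same value for reads that skip it. Just inside the read minimum, the 1860 introns whose smaller mean lay from 10 to under 11 reads had a median of 4.58% retained in KO-4 and 4.03% in WT. Just outside, the 2031 introns from 9 to under 10 reads had medians of 4.11% and 3.61%. For expression, the reads that skip an intron were summed over each of 10937 single gene names, of which 9615 had enough reads to be tested.

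Introns are removed from pre-mRNA by the spliceosomes. The major spliceosome, built on U1, U2, U4, U5 and U6 snRNPs, removes nearly all of them. The minor spliceosome uses U11, U12, U4atac and U6atac with U5 and removes a small group of introns, called U12-type, that carry a strict start sequence and a strict branch site near their end. Retained introns keep many transcripts in the nucleus or expose them to decay, and U12-type introns are known to be removed more slowly than their neighbours.

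U12-type introns were recognised by sequence, so the ends of those on which the results turn are shown first. Each first line gives the first 14 bases of the intron, with the 8 bases of the start motif in capitals. Each second line gives its last 40 bases, with the best match to the branch motif in capitals. The letters are those of GENCODE v29 transcripts (hg38) whose exons cover these intron ends, written 5′ to 3′ on the strand of the gene. ATG3, LSG1, TMEM258 and SNRPE rose in KO-4, and MAPK9 and TCEA2 fell. The intron of RECQL5 had the largest fall in points among called introns without overlap of the groups. It is given because its ends resemble the motifs but lie outside the rule.
ATG3 start: GTATCCTTccctgt
ATG3 end: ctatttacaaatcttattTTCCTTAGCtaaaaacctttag
LSG1 start: ATATCCTTtctgct
LSG1 end: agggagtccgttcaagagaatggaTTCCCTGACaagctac
TMEM258 start: GTATCCTTtcactg
TMEM258 end: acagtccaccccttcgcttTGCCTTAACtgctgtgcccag
SNRPE start: GTATCCTAcgcagg
SNRPE end: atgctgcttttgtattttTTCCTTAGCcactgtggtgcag
TCEA2 start: ATATCCTTtgggta
TCEA2 end: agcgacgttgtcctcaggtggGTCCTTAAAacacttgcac
MAPK9 start: GTATCCTTccccgc
MAPK9 end: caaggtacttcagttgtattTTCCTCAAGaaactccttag
RECQL5 start: ATATCTTAgggtga
RECQL5 end: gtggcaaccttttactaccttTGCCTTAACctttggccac

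An intron was counted as U12-type when its first 8 bases differed from GTATCCTT or ATATCCTT at no more than 1 base and a stretch of its last 40 bases differed from TTCCTTAAC at no more than 2 bases. Only the transcribed strand was searched. Both ends could be read only where annotated exons cover them. This held for 18016 of the 111143 introns, and 87 of these met the rule. Among the introns tested for KO-4 against WT, 15405 were not read and enter neither class. A match describes letters and was not tested as a working splice signal. Introns with both ends read whose first 8 bases differed at more than 1 base were counted as the major class, whatever their other letters. The intron of RECQL5 differs from the start motif at 2 bases. It was therefore not counted as U12-type and is counted in the major class.

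The 6 libraries held between 30270173 and 35856445 junction reads each. Reads for retention made up 13.96% to 14.16% of these in KO-4 and 12.87% to 13.89% in WT, and the highest WT value belonged to the WT library listed 3rd. Of 8 colon epithelial markers, 6 were listed (EPCAM, CDH1, KRT8, KRT18, KRT19 and CDX2), and their scaled spliced reads summed to between 149684 and 155030 in KO-4 and between 120126 and 151048 in WT. KRT19 carried this difference, with a mean of 44519 against 25699, whereas EPCAM (6808 against 10084) and CDH1 (761 against 1233) were lower in KO-4. Of 8 mesenchymal markers, 4 were listed (VIM, FN1, ZEB1 and COL1A1), with sums of 4557 to 6216 in KO-4 and 2242 to 2885 in WT. None of 5 immune and none of 3 endothelial markers was listed.

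Retention changed in 478 introns of 380 genes in KO-4, 1.97% of the introns tested, and most of these changes were rises. By a quasi-binomial test with Benjamini-Hochberg adjustment over all introns tested, 374 introns in 299 genes were retained more in KO-4, which is 1.54% of those tested. Another 104 introns in 86 genes, 0.429% of those tested, were retained less. The median rise among the called introns was 5.70 percentage points and the median fall was -9.34 points. A difference of at least 20 points was reached by 35 of the higher and 12 of the lower introns. The 3 values of KO-4 and the 3 of WT did not overlap in 453 of the 478 introns, against 17.5% of all introns tested.

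The whole set of introns was shifted slightly towards retention in KO-4, with a median change of 0.17 in log2 odds and 64.7% of introns above 0. Once each library was centred on its median intron, the split turned to 190 higher and 259 lower. Without the WT library listed 3rd, which had the highest share of retention reads in its group, 993 introns were higher and 121 lower. Many of the introns that changed have an annotated exon of another transcript inside them, and for these, reads from that exon and reads from the retained intron cannot be told apart. Introns with no such exon made up 43.6% of the higher, 26.9% of the lower and 47.0% of all introns tested.

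**Figure D1:**
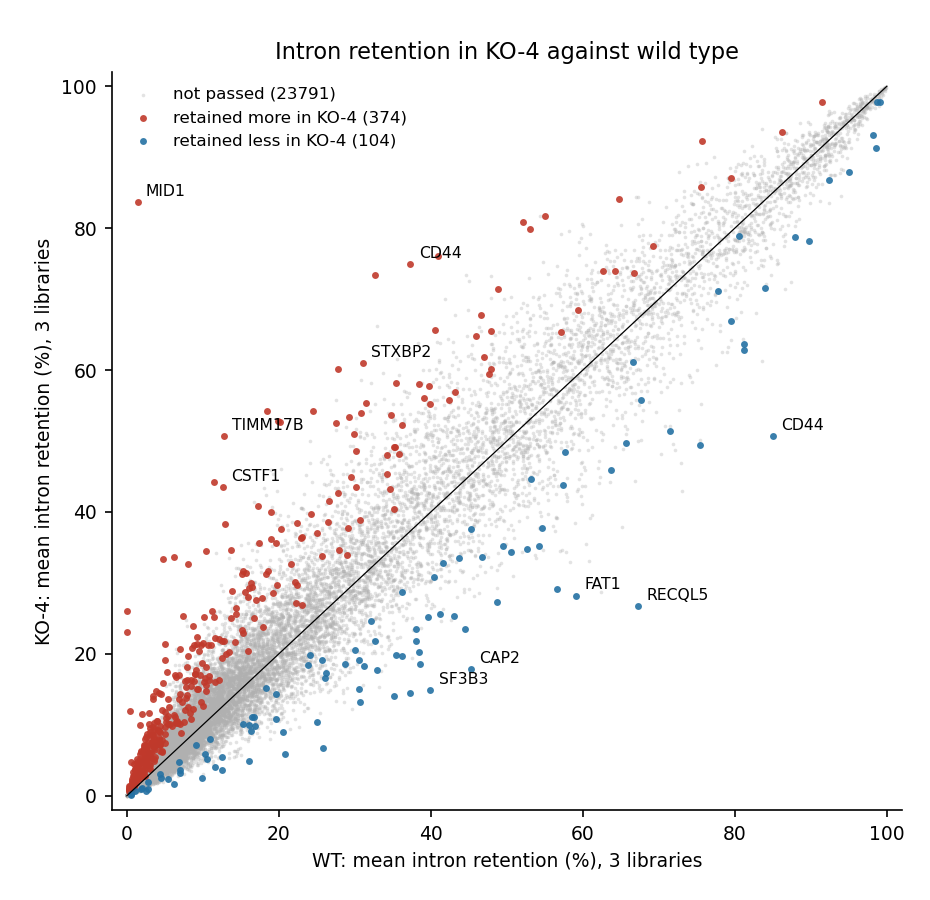
Mean percent retained in KO-4 (vertical axis) against WT (horizontal axis) for the 24269 introns tested, with the introns called higher or lower in colour and the others in grey. Most introns lie near the diagonal, 374 are called above it and 104 below it, and MID1 stands alone at the upper left with 83.7% in KO-4 and 1.42% in WT.

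Of 62 U12-type introns tested, 16 rose in KO-4 (25.8%), 2 fell and 44 did not pass the test, and 53 lay above 0. Of 8774 introns of the major class whose ends were read, 167 rose (1.90%) and 50 fell, with the RECQL5 intron among the falls. The median change in log2 odds was 0.68 over the U12-type introns and 0.16 over the major class, beside 0.17 over all introns tested. Of the U12-type introns with GT-AG ends, 13 of 47 rose, and of those with AT-AC ends, 3 of 15 rose. With each library centred on its median intron, 16 U12-type introns were higher and 4 lower, and in the major class 64 were higher and 131 lower. With limma on log2 odds, 4 U12-type introns were higher and 1 lower, and in the major class 20 and 10. Leaving out 1 library gave 13 to 22 U12-type and 67 to 436 major-class introns higher, the largest counts without the WT library listed 3rd.

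The intron with the smallest adjusted p among these was in ATG3, the enzyme that attaches LC3-family proteins to lipid in autophagy. Intron 11 of 11 (chromosome 3, 112532781 to 112534268, between coding exons) was retained at 5.88%, 5.08% and 4.02% in WT and at 22.5%, 23.4% and 18.3% in KO-4. An annotated exon lies inside it, so reads from that exon and reads from the retained intron cannot be told apart. The groups lay far apart, at 5.00% ± 0.93 (SD, n = 3) and 21.4% ± 2.76 (SD, n = 3). The change in log2 odds was 2.37 ± 0.31 (SE), with an adjusted p of 6.75e-10 by the quasi-binomial test.

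LSG1, a GTPase of late large ribosomal subunit assembly, had the widest rise in points among the U12-type introns called. Its intron 10 of 13 (chromosome 3, 194648805 to 194650880) has AT-AC ends and no annotated exon inside. It was retained at 12.3%, 11.1% and 15.6% in WT and at 32.3%, 47.5% and 35.1% in KO-4, and every KO-4 library lay above every WT library. The change in log2 odds was 2.06 ± 0.29 (SE; adjusted p = 4.07e-08, quasi-binomial test).

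Several U12-type introns that are removed efficiently in WT rose at low levels. In TMEM258, a subunit of the oligosaccharyltransferase, intron 2 of 3 (chromosome 11, 61789922 to 61790492) was retained at 2.51%, 3.90% and 4.03% in WT and at 7.74%, 9.03% and 8.81% in KO-4 (adjusted p = 7.63e-08, quasi-binomial test). In SNRPE, an Sm protein shared by the snRNPs of both spliceosomes, intron 1 of 4 (chromosome 1, 203861714 to 203862195) went from 4.13%, 3.87% and 3.93% to 6.43%, 7.65% and 7.34% (adjusted p = 6.47e-06). PFDN5, a prefoldin subunit, went from 2.74% ± 0.63 to 6.17% ± 0.97, and PSMA1, a proteasome core subunit, from 4.42% ± 0.46 to 7.21% ± 0.52 (SD, n = 3 each). All 4 passed the test with groups that did not overlap, and all 4 introns hold an annotated exon.

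Further U12-type introns that rose were in genes of varied roles. LSM8, a subunit of the ring that binds U6 snRNA, went from 14.4% ± 2.77 to 25.7% ± 0.79, and TRAPPC2L, a subunit of a vesicle tethering complex, from 8.47% ± 0.92 to 15.4% ± 2.33. ZDHHC8, a palmitoyltransferase, had the highest level, 48.9% ± 9.59 in WT and 71.4% ± 2.93 in KO-4. DERL2, which takes part in the disposal of misfolded endoplasmic reticulum proteins, went from 10.7% ± 3.57 to 21.3% ± 3.59 (SD, n = 3 for each value here). WDFY1 rose from 11.2% to 26.1%, NR2C2AP from 15.6% to 28.7% and AP2A2, a subunit of the endocytic adaptor AP2, from 4.21% to 9.16%. CHD4, the remodelling ATPase of the NuRD complex, rose from 0.94% to 2.82% in an intron also listed under AC006064.6, and CAPN1, a calcium-dependent protease, from 0.47% to 1.44%. The introns of LSM8, TRAPPC2L, ZDHHC8, DERL2 and NR2C2AP hold an annotated exon, and those of WDFY1, AP2A2, CHD4 and CAPN1 do not.

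The falls were in TCEA2, a transcription elongation factor, and MAPK9, the kinase JNK2. Intron 7 of 10 of TCEA2 (chromosome 20, 64069822 to 64070259) was retained at 23.5%, 20.5% and 18.6% in WT and at 4.04%, 8.33% and 5.26% in KO-4 (adjusted p = 0.00148, quasi-binomial test). Intron 7 of 11 of MAPK9 (chromosome 5, 180242756 to 180247438) went from 10.6% ± 2.58 to 5.25% ± 0.97 (SD, n = 3 each; adjusted p = 0.0476). The MAPK9 call was lost in 5 of the 6 fits that leave out 1 library. Both introns hold an annotated exon.

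**Figure D2:**
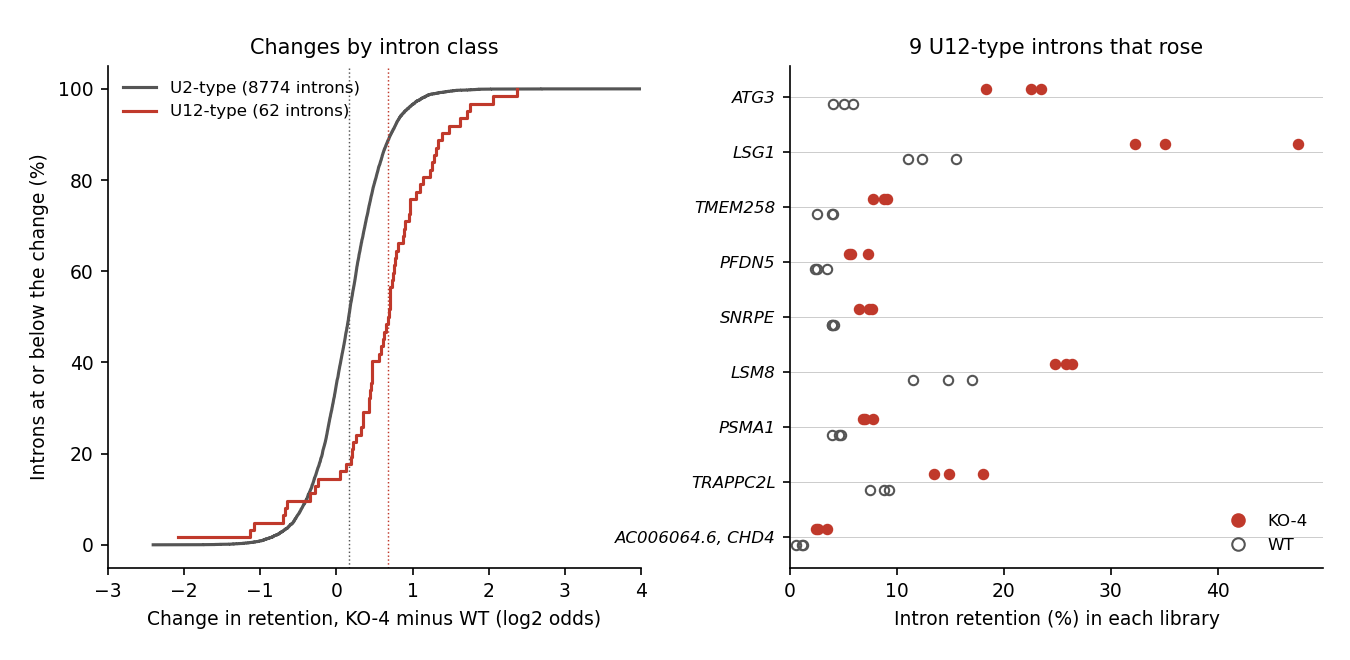
Left, the share of introns at or below each change in log2 odds, KO-4 minus WT, for 62 U12-type and 8774 major-class (U2-type) introns, with dotted lines at the medians of 0.68 and 0.16. Right, percent retained in each library for 9 U12-type introns that rose, where every KO-4 point (filled) lies to the right of every WT point (open), as in LSG1 at 32.3% to 47.5% against 11.1% to 15.6%.

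The level of the U12-type class was also measured in each library. The median log2 odds of the U12-type introns minus that of the major class, relative to the WT mean, was -0.01, -0.00 and -0.14 in the KO-4 libraries, with a mean of -0.05 ± 0.08 (SD, n = 3) against an SD of 0.12 in WT (exact two-sided permutation p = 0.4). Restricted to introns with a mean of at least 50 reads of each kind, the difference was 0.34 with an exact permutation p of 0.1, the smallest that 3 against 3 can give. A version chosen after the data were seen, in which each intron's change from its own WT mean is taken before the median, gave 0.51, 0.54 and 0.55 in KO-4 and -0.07, 0.10 and -0.05 in WT (exact permutation p = 0.1). Over the 60 U12-type and 8093 major-class introns tested in the comparison of clones, the first version gave 0.29, 0.48 and 0.29 in KO-4 (mean 0.35 ± 0.11, SD) and -0.06, -0.04 and 0.10 in WT. In these introns the means of KO-1, KO-2 and KO-3 were 0.99, 0.61 and 0.58, and KO-4 minus their mean was -0.37 (exact two-sided permutation p = 0.05 over libraries, which are not independent within a clone). The sign of the measure against WT thus differed between these versions.

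The largest rises in points lay in introns of other kinds. MID1, a microtubule-bound ubiquitin ligase, stood far from all others. Its intron 2 of 10, in the 5′ UTR (chromosome X, 10567604 to 10620289), holds an annotated exon. It was at 2.29%, 1.96% and 0% in WT and at 90.5%, 87.3% and 73.3% in KO-4 (adjusted p = 6.18e-22, quasi-binomial test). Retention reads numbered 57, 55 and 55 in KO-4 against 3, 4 and 0 in WT, and splicing reads 3, 4 and 10 in KO-4 against 64, 100 and 70 in WT. Both kinds of read therefore changed, in opposite directions.

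CCDC84, a protein of the minor spliceosome also called CENATAC, had 2 introns that rose and 1 that fell. Intron 5 of 10 (chromosome 11, 119011284 to 119011938) was retained at 16.4%, 22.5% and 20.9% in WT and at 52.6%, 56.2% and 49.7% in KO-4. The change in log2 odds was 2.21 ± 0.29 (SE, adjusted p = 6.94e-09, quasi-binomial test). A shorter form of the same intron (119011312 to 119011938) fell, from 25% ± 6.49 to 10.4% ± 2.23 (SD, n = 3 each; adjusted p = 0.0346). The intron from 118999110 to 119010763 rose from 31.4% ± 5.03 to 55.4% ± 5.19 (adjusted p = 0.00281). The summed spliced reads of CCDC84 did not pass the test (log2 change -0.03).

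CD44, the hyaluronan receptor known for its block of variable exons, had the most called introns of any gene, with 8 higher and 2 lower of 22 tested. The intron from 35210055 to 35214851 on chromosome 11 was at 35.4%, 31.9% and 44.6% in WT and at 67.7%, 77.8% and 79.1% in KO-4 (adjusted p = 0.000829, quasi-binomial test). The intron from 35190066 to 35211245 went the other way, from 86.7%, 91.3% and 77.0% to 54.3%, 47.4% and 50.4% (adjusted p = 0.000844). Both span annotated exons, and they overlap. Some of the 10 called introns share an end, and all come from transcripts of 1 gene, so they are not independent. Intron 11 of 17 (35206244 to 35208104), which holds no annotated exon, rose from 3.46% ± 0.42 to 9.76% ± 0.62 (SD, n = 3 each; adjusted p = 5.88e-08).

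Among the other large rises, SIDT2, a lysosomal membrane protein, went from 11.5% ± 6.53 to 44.2% ± 5.23 in its last intron. RASSF1, a tumour suppressor of the RAS association family, went from 41.0% ± 4.47 to 76.1% ± 9.52, and CSTF1, a subunit of the cleavage stimulation factor, from 12.7% ± 3.83 to 43.5% ± 7.52, both in first introns of the 5′ UTR. STXBP2, a syntaxin-binding protein, went from 31.1% ± 8.28 to 61.0% ± 5.83 (SD, n = 3 for each value here). TIMM17B, a subunit of the mitochondrial inner membrane translocase, was at 14.3%, 8.11% and 16% in WT and at 63.6%, 64.7% and 23.8% in KO-4, with 1 KO-4 library near WT. The transcripts AC092143.3, AC012363.1, AC093752.1 and AC107871.1 rose by 32.3 to 40.8 points. Of the 12 largest rises, 5 kept the call when each library was left out in turn. RASSF1 and AC093752.1 lost it in 5 of 6 such fits, TIMM17B in 3, CSTF1 without the KO-4 library listed 1st and STXBP2 without the KO-4 library listed 2nd.

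Among called introns without overlap of the groups, the largest fall in points was in RECQL5, a DNA helicase of genome maintenance. The ends of this AT-AC intron are printed above. Its intron 1 of 19 (chromosome 17, 75666572 to 75667043, 5′ UTR) was retained at 79.6%, 62.4% and 60.0% in WT and at 22.3%, 27.0% and 30.9% in KO-4. The change in log2 odds was -2.41 ± 0.35 (SE, adjusted p = 1.29e-07, quasi-binomial test).

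CAV1, the main protein of caveolae, had the smallest adjusted p among the introns that fell. Its intron 1 of 2 (chromosome 7, 116525093 to 116526524) was at 47.6%, 48.4% and 50.1% in WT and at 27.7%, 28.1% and 26.1% in KO-4 (adjusted p = 3.41e-27, quasi-binomial test). Retention reads were 1567, 1603 and 1432 in KO-4 against 770, 957 and 808 in WT, and splicing reads 2050, 2055 and 2028 against 424, 511 and 403. Both kinds of read were higher in KO-4, the splicing reads by more, so the lower percentage went with more RNA of both forms.

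MAD2L2, a subunit of the translesion polymerase zeta, fell from 56.6% ± 12 to 29.1% ± 1.00 in a first intron of the 5′ UTR (SD, n = 3 each; adjusted p = 3.36e-05, quasi-binomial test). FAT1, a giant protocadherin, fell from 59.1% ± 5.45 to 28.2% ± 3.11, and SF3B3, a protein of the U2 snRNP, from 39.9% ± 5.72 to 14.8% ± 1.00 in a 3′ UTR intron. VPS9D1 fell from 37.3% to 14.5%, DNAJC10, a disulfide reductase of the endoplasmic reticulum, from 75.4% to 49.5%, and ENC1, an actin-binding protein, from 35.2% to 14%. YWHAZ, a 14-3-3 protein, fell from 71.4% ± 1.47 to 51.4% ± 5.21. CAP2, an actin regulator, fell from 45.3% to 17.8% and lost the call without the WT library listed 1st, and HYI fell from 44.5% to 23.5% and lost it in 5 of 6 such fits. SF3B3, DNAJC10 and ENC1 lost it in 3 and VPS9D1 in 2. Of the 12 largest falls, 6 kept the call when each library was left out.

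**Figure D3:**
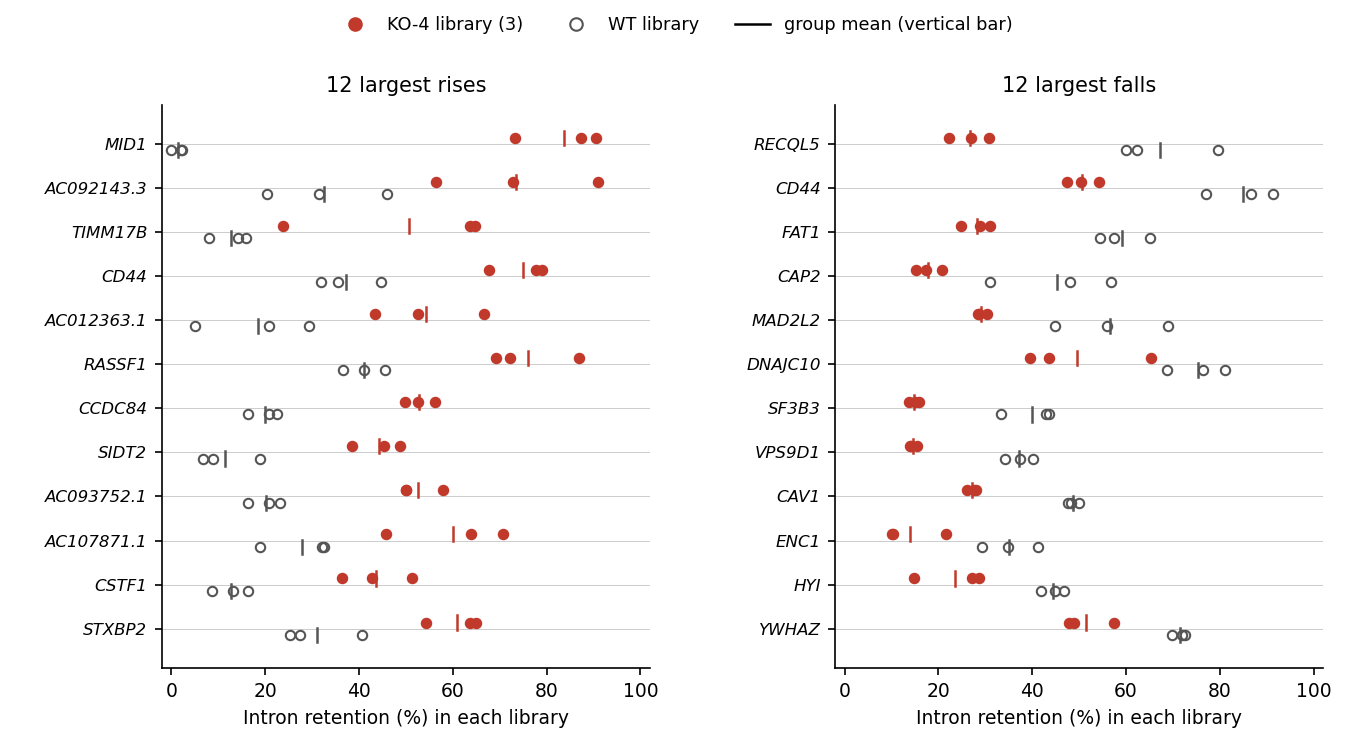
Percent retained in each library (points) for the 12 introns with the largest rises and the 12 with the largest falls between KO-4 and WT, with a line at each group's mean. MID1 shows the widest gap, TIMM17B has 1 KO-4 library at 23.8% near the WT values, and RECQL5 and CAV1 have KO-4 below WT. All introns shown were picked so that the groups do not overlap.

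In 14 genes, at least 3 introns rose. They were picked after their values were seen. IMPDH2, the rate-limiting enzyme of guanine nucleotide synthesis, had 6 of 16 introns higher and all 16 above 0, with called rises of 0.72 to 2.79 points. BOP1, a ribosome biogenesis factor, had 4 of 13 higher and all 13 above 0. XPO5, the exporter of pre-miRNA, had 3 of 6 higher, SUN1, a protein of the inner nuclear membrane, 3 of 13, and SREBF1, a regulator of lipid synthesis, 3 of 21. The summed spliced reads fell in IMPDH2 (log2 change -0.66), BOP1 (-0.39) and XPO5 (-0.48) and rose in SUN1 (0.29) and SREBF1 (0.55). Introns of 1 gene share its transcripts and are not replicates.

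Among the genes with a tested intron and a gene-level test (6332), 28.4% had more spliced reads in KO-4 and 23.5% fewer. Of the 284 with an intron that rose, 73 had more spliced reads and 106 fewer. Of the 83 with an intron that fell, 47 had more and 18 fewer. A retained intron removes splicing reads from the same sum, so these counts are not independent of the retention calls. With the called introns left out of every sum, 2364 of 9612 genes were higher and 2306 lower, near the counts given for all introns below. These totals cover all genes tested and not only those with a called intron. They cannot show how far the counts for those genes depend on the calls.

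Changes in introns were counted over lists of genes by function. In genes known to carry U12-type introns, 20 of 230 introns of any class rose and 4 fell, beside 1.54% and 0.429% of all introns tested. This list was chosen with earlier results of these data known, and it includes ATG3, LSG1, TMEM258 and others reported above. Part of its count repeats those calls, so it adds no separate support. In proteins of the major spliceosome, 7 of 115 rose and 1 fell. They included U2AF2, the large subunit of U2AF, from 2.87% ± 0.88 to 5.23% ± 0.35, and SNRNP70, the U1 70K protein, from 7.66% ± 2.05 to 12.1% ± 1.67 (SD, n = 3 each). Among SR proteins, hnRNPs and their kinases, 3 of 274 rose and 3 fell. SRPK1, a kinase of SR proteins, rose from 8.80% to 21.2%, and HNRNPC fell from 24.1% to 19.9%.

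Genes tied to small nucleolar RNAs were also among those that changed. Box C/D snoRNP proteins had 3 of 40 introns higher (7.5%) and none lower, all 3 in NOP56, a core protein of these particles. Among all introns tested, 1.54% were higher and 0.429% lower. Intron 1 of a noncoding NOP56 transcript (chromosome 20, 2656215 to 2656400) was at 19.3%, 11.2% and 18.5% in WT and at 33.8%, 27.8% and 28.5% in KO-4 (adjusted p = 4.02e-15, quasi-binomial test). The snoRNA host genes had 9 of 197 introns higher and 5 lower (4.57% and 2.54%). SNHG29 rose from 15.1% ± 2.77 to 23.4% ± 1.25 and GAS5 from 9.71% ± 0.36 to 13.2% ± 0.34, while EIF4A2 fell from 36.2% ± 4.60 to 28.7% ± 1.73 (SD, n = 3 each). The call for GAS5 was lost when each library was centred on its median intron, and in 2 of the 6 fits that leave out 1 library.

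Of the introns of colon epithelial markers, 3 of 54 rose and 4 fell. CLDN7, a claudin, held 1 rise and 2 falls, KRT8 held 2 falls, and KRT18 and KRT19 held 1 rise each, both lost after centring. Ribosomal protein genes had 7 of 407 introns higher and 3 lower (1.72% and 0.737%, beside 1.54% and 0.429% of all introns tested), with RPS24 from 15.2% to 10.1% and RPL8 from 16.8% to 11.1%. RPL10 rose from 62.7% to 74.0%, a call lost after centring and in 3 of 6 fits that leave out 1 library. The WNT list had 8 of 74 higher and 2 lower, and CD44 held all 10. Cell cycle genes had 2 of 156 higher (1.28%, beside 1.54% of all introns tested), CCNE2 and E2F3. CCNE2 lost the call after centring and in 5 of 6 fits that leave out 1 library, and E2F3 in 4 of 6. Nuclear transport genes had 4 of 147 higher, of which 3 were in XPO5. PARP1, the poly(ADP-ribose) polymerase of DNA repair, rose from 0.26% to 1.33%. No intron passed the test among 59 of p53 targets and 56 of the interferon response.

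Length, position and WT level were compared among the introns called. Introns of up to 150 bases had 32 of 3780 higher (0.847%) and 22 lower, against 123 of 6382 higher (1.93%) and 21 lower from over 150 to 500 bases. Introns in a 3′ UTR had 5 of 713 higher and 7 lower, and introns between coding exons 329 of 20134 higher and 80 lower. Introns retained at 5% or less in WT had 181 of 9316 higher and 10 lower, and introns over 50% in WT had 15 of 2729 higher and 31 lower. The WT level also enters the difference, so this order is a description.

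Spliced reads per gene differed between KO-4 and WT in about as many genes upwards as downwards, mostly by small amounts. Counts were scaled by median-ratio size factors, and limma with Benjamini-Hochberg adjustment called 2368 genes higher (24.6% of 9615 tested) and 2316 lower (24.1%), together 48.7%. The median size of a called change was 0.36 on the log2 scale, and 150 genes rose and 47 fell by at least 2-fold. In 56.1% of genes the 3 values of each group did not overlap. Scaled by total spliced reads, 2537 genes were higher and 2053 lower. These sums cover only the listed introns of each gene, and fewer transcripts and poorer splicing cannot be told apart in them.

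The strongest rise was in AOPEP, an aminopeptidase, with scaled spliced reads of 225, 234 and 239 in WT and 2149, 2173 and 2413 in KO-4. The log2 change was 3.27 ± 0.08 (SE; limma adjusted p = 1.93e-14). SERPINA1, the alpha-1 antitrypsin gene, went from 32.3, 17.3 and 23.5 to 254, 262 and 180, in the 1 intron listed for it. AC078993.1 rose by 3.06 on the log2 scale.

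The rest of the 12 largest rises follow. SPARC, a matrix glycoprotein, went from 268, 274 and 297 in WT to 2354, 1438 and 1093 in KO-4 (log2 change 2.47 ± 0.18, SE; limma adjusted p = 1.2e-08), with a wide spread in KO-4. COL13A1, a membrane collagen, rose by 2.11 and PDGFC, a platelet-derived growth factor, by 2.10, from 351, 294 and 360 to 1337, 1460 and 1502. SUSD2, a membrane protein, rose by 2.23, FGF9, a fibroblast growth factor, by 2.25, SNTB1, a syntrophin, by 2.20 and SECTM1 by 2.09. The cytidine deaminases APOBEC3F and APOBEC3C rose by 2.24 and 2.09, the latter from 846, 868 and 775 to 3826, 3545 and 3251. They are close relatives, and reads shared between such copies could have been split in the counting.

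The strongest fall was in ACSL5, a long-chain acyl-CoA synthetase, with 5285, 5087 and 5974 scaled spliced reads in WT and 265, 339 and 424 in KO-4. The log2 change was -4.01 ± 0.12 (SE; limma adjusted p = 1.75e-13). PALLD, the actin scaffold palladin, went from 3485, 3665 and 4029 to 530, 561 and 569 (log2 change -2.75 ± 0.07, SE). GEMIN5, which recognises snRNAs for the assembly of snRNPs by the SMN complex, went from 2709, 3146 and 3008 to 1036, 1050 and 1243 (-1.41 ± 0.08). These genes were picked only among called genes whose groups do not overlap.

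The rest of the 12 largest falls were CA2, a carbonic anhydrase (-1.79), S100A14, a calcium-binding protein of epithelia (-1.62), PRKACB, a catalytic subunit of protein kinase A (-1.41), UPP1, uridine phosphorylase (-1.41), OR51B5, an olfactory receptor gene (-1.82), VOPP1 (-1.50), and MFSD14A (-1.91), HS3ST1 (-1.72) and FAM241A (-1.65). MFSD14A, HS3ST1 and FAM241A each rested on 1 listed intron.

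Spliced reads of nearly all ribosomal protein genes fell. Of 75 tested, 72 fell, none rose and all had a change below 0, with a median log2 change of -0.35 beside 0.00 for all genes. Among all genes tested, 24.1% fell and 24.6% rose. RPL14 went from 34088, 34201 and 31807 in WT to 23151, 23501 and 23437 in KO-4 (log2 change -0.51 ± 0.05, SE; limma adjusted p = 2.56e-07). RPL4, RPL21 and RPS27A fell by 0.47, 0.48 and 0.52. These genes have many near-identical copies in the genome, so their counts are uncertain where the counting could split reads between copies.

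The snoRNA host genes and the proteins that bind box C/D snoRNAs fell too. Of 22 host genes, 18 fell and none rose (median -0.36), where 24.1% of all genes tested fell and 24.6% rose. SNHG8 went from 648, 694 and 516 to 306, 366 and 322 (log2 change -0.89 ± 0.12, SE), SNHG16 and SNHG5 fell by 0.63 and 0.62, and NCL, nucleolin, fell by 0.45. Of 12 box C/D proteins, 10 fell and none rose (median -0.24), among them FBL, the methyltransferase fibrillarin (-0.49), and NOP56 (-0.38). Scaled by total spliced reads, 7 of the box C/D proteins fell and 1 rose.

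Nuclear transport genes had 33 of 41 lower and 1 higher (median -0.26). Of all genes tested, 24.1% were lower and 24.6% higher. IPO7, an importin, went from 11056, 10789 and 10512 to 7351, 7328 and 7666 (log2 change -0.53 ± 0.05, SE; limma adjusted p = 1.28e-07), and NUP210, a pore membrane protein, fell by 0.54. Proteins of the major spliceosome had 20 of 38 lower and 4 higher (median -0.15), with LSM5 at -0.55. The minor spliceosome had 4 of 15 higher (26.7%, beside 24.6% of all genes tested) and 1 lower. ZRSR2, which recognises the end of U12-type introns, rose by 0.49, ZCRB1 by 0.17 and ZMAT5 by 0.37, and SNRNP48 fell by 0.27. Genes with U12-type introns had 13 of 58 higher (22.4%, near the share of all genes) and 22 lower (37.9%), with a median of -0.08. INTS10 was at -0.60 and XPO4 at -0.78. Genes of mRNA decay had 17 of 38 lower and 3 higher, including the exosome subunits EXOSC7 (-0.58) and EXOSC2 (-0.62). SR proteins, hnRNPs and their kinases had 3 of 33 higher (9.09%) and 8 lower (24.2%, near the share of all genes). SRPK1 was at -0.55.

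The spliced reads of the genes whose U12-type introns are printed above were compared as well. ATG3 (-0.17), LSG1 (-0.20), TMEM258 (-0.22) and SNRPE (-0.36) fell. TCEA2, whose intron fell, rose by 0.59, and MAPK9 fell by 0.30.

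The MAPK and WNT signalling lists had a larger share of rises than all genes tested, and a share of falls near that of all genes. In the MAPK list, 17 of 34 genes rose and 9 fell, where 24.6% of all genes tested rose and 24.1% fell. FOSL1, an AP-1 subunit, went from 844, 979 and 851 to 2294, 2122 and 2061 (log2 change 1.28 ± 0.07, SE; limma adjusted p = 9.94e-10), EPHA2, a receptor kinase, rose by 0.84 and CCND1, cyclin D1, by 0.62, while MYC fell by 0.77. In the WNT list, 8 of 16 rose and 4 fell, beside the same shares of all genes. BMP4 rose by 1.66, and AXIN2, NOTUM and DKK1, which are feedback inhibitors of the pathway, rose by 1.40, 1.24 and 1.08. AXIN2 went from 566, 547 and 599 to 1494, 1776 and 1291. MYC is in both lists.

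Of 26 p53 targets, 15 fell and 3 rose (57.7% and 11.5%, beside 24.1% and 24.6% of all genes tested), with a median of -0.23. MDM2, the ubiquitin ligase that limits p53, went from 1587, 1560 and 1708 to 1054, 998 and 994 (log2 change -0.67 ± 0.07, SE), SESN1 fell by 0.56, and TP53I3 rose by 1.04. Of 29 interferon response genes, 14 rose and 3 fell (48.3% and 10.3%). The RNA sensor DDX58 was at 0.81, IFI6 at 0.80 and STAT3 at -0.52. In the cell cycle list, 6 of 36 rose and 11 fell (16.7% and 30.6%), with MKI67 at -0.45. When scaled by total spliced reads, 9 rose and 8 fell. In the DNA repair list, 8 of 29 rose and 5 fell (27.6% and 17.2%, beside 24.6% and 24.1% of all genes tested), with MSH6 at 0.50 and CHEK2 at -0.49.

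Markers of epithelial and mesenchymal cells differed between KO-4 and WT. Of 15 colon epithelial markers tested, 8 fell and 3 rose, where 24.1% of all genes tested fell and 24.6% rose. The share of these markers that rose was near that of all genes. CDH1, E-cadherin, went from 1117, 1234 and 1348 to 630, 701 and 953 (log2 change -0.71 ± 0.12, SE), EPCAM fell by 0.59 and the splicing factor ESRP1 by 0.53, and KRT19 rose by 0.79. Of 17 mesenchymal markers, 5 were tested, of which 4 rose and 1 fell, beside the same shares of all genes. VIM, vimentin, went from 221, 358 and 314 to 825, 913 and 727 (log2 change 1.49 ± 0.14, SE), and FN1, fibronectin, from 1025, 973 and 1118 to 3246, 2982 and 2205 (1.42 ± 0.10). COL1A1 rose by 0.54 and SNAI1 fell by 0.75. These markers changed in the same libraries as the introns and genes above, and their part in those results was not tested.

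**Figure D4:**
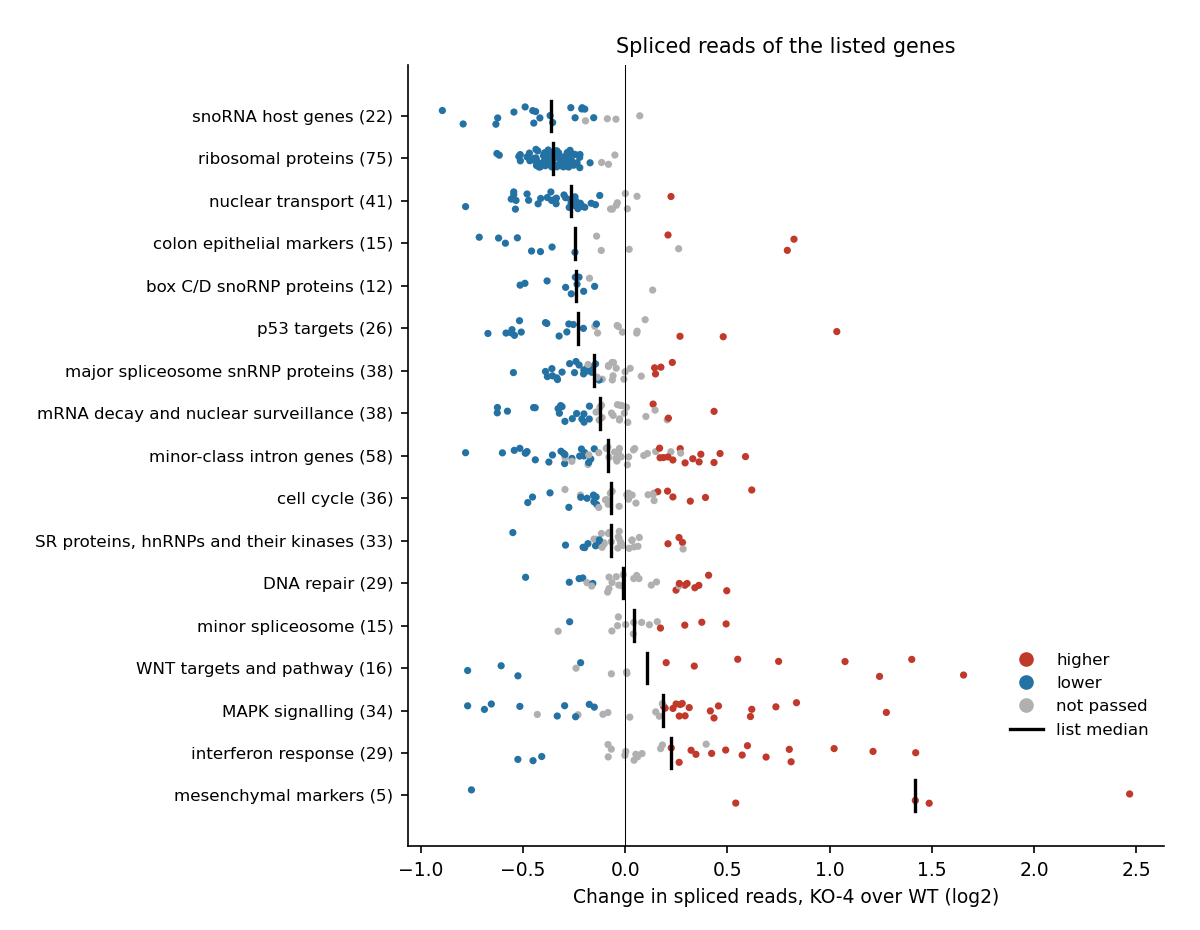
Log2 change in spliced reads between KO-4 and WT for each tested gene (points) of the gene lists, with the list's median as a line and genes that passed the limma test in colour. All 75 ribosomal protein genes lie below 0, the snoRNA host and nuclear transport genes lie mostly below 0, and 4 of the 5 mesenchymal markers lie above 0.

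KO-4 was then compared with KO-1, KO-2 and KO-3, giving each clone equal weight. This comparison uses no WT library in its test, but its KO-4 libraries are those of the comparison with WT, so the results share them. Of 21223 introns tested, 391 were higher in KO-4 (1.84%) and 192 lower (0.905%) by the quasi-binomial test, together 2.75%. Without KO-3, 220 were higher and 172 lower. Of 8847 genes, 2190 were higher (24.8%) and 2073 lower (23.4%) by limma, together 48.2%. Both tests take their error from libraries within each clone. The spread between KO-1, KO-2 and KO-3 does not enter it, so a call describes KO-4 as 1 isolate.

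Of 60 U12-type introns tested against the other clones, 1 was higher in KO-4 and 9 were lower, with a median change of -0.21 in log2 odds beside 0.08 over all introns. TMEM258 was at 8.53% ± 0.69 in KO-4 and at 15.7% ± 2.82, 12.5% ± 1.48 and 9.06% ± 2.17 in KO-1, KO-2 and KO-3, with WT at 3.48% ± 0.84. PSMA1 was at 7.21% in KO-4 and at 12.9%, 9.45% and 8.22% in KO-1, KO-2 and KO-3. GAK, a kinase of clathrin uncoating, was at 3.69% ± 1.16 in KO-4 and at 9.92% ± 2.45, 8.36% ± 2.16 and 12.3% ± 2.06 in the others, with WT at 2.21% ± 0.76 (SD, n = 3 for each). UFD1, LSM8, UBXN4, TRAPPC2L, MAPK12 and the intron shared by ZNF207 and AC005899.4 were the other lower introns, and EIF4B was the higher one. KO-1 had the highest mean of the clones in 8 of these 9 lower introns, and without it 2 were lower and the median was -0.03. Leaving out 1 KO-4 library gave 3 to 7 lower, the fewest without the one listed 1st.

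Among the introns with the largest differences from the other clones, MID1 was at 83.7% ± 9.12 in KO-4 and at 0%, 0.46% and 0.23% in KO-1, KO-2 and KO-3. CSTF1 was at 43.5% ± 7.52 in KO-4 and at 12.8%, 12.8% and 11.2% in the others. STK16, a kinase of the secretory pathway, was at 33.3% ± 2.29 in KO-4 and at 4.55% ± 1.31, 3.67% ± 1.18 and 2.60% ± 2.05 in the others, with WT at 4.76% ± 1.00 (SD, n = 3 for each).

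In spliced reads, all 75 ribosomal protein genes were lower in KO-4 than in the other clones (median -0.48), as were 19 of 21 snoRNA host genes and 17 of 26 p53 targets. Among all genes tested against the clones, 23.4% were lower and 24.8% higher. RPL14 was at 20803 ± 192 in KO-4 and at 28923 ± 1564, 29657 ± 433 and 36922 ± 2673 in KO-1, KO-2 and KO-3, with WT at 29712 ± 1183 (SD, n = 3 for each, on the scaling of this comparison). AXIN2 was at 1274 ± 219 in KO-4 and at 567 ± 26.1, 699 ± 60.6 and 317 ± 27.1 in the others, in the same order. The interferon response list went 4 higher and 8 lower of 26 (15.4% and 30.8%, median -0.11), but 9 higher and 5 lower without KO-2 (median 0.06). CAV1 was at 4900 in KO-4 and at 1495, 1274 and 768 in the others. ACSL5 was low in KO-4 and in KO-1, at 275 and 528, and was at 4699 in KO-2 and 5817 in KO-3.

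**Figure D5:**
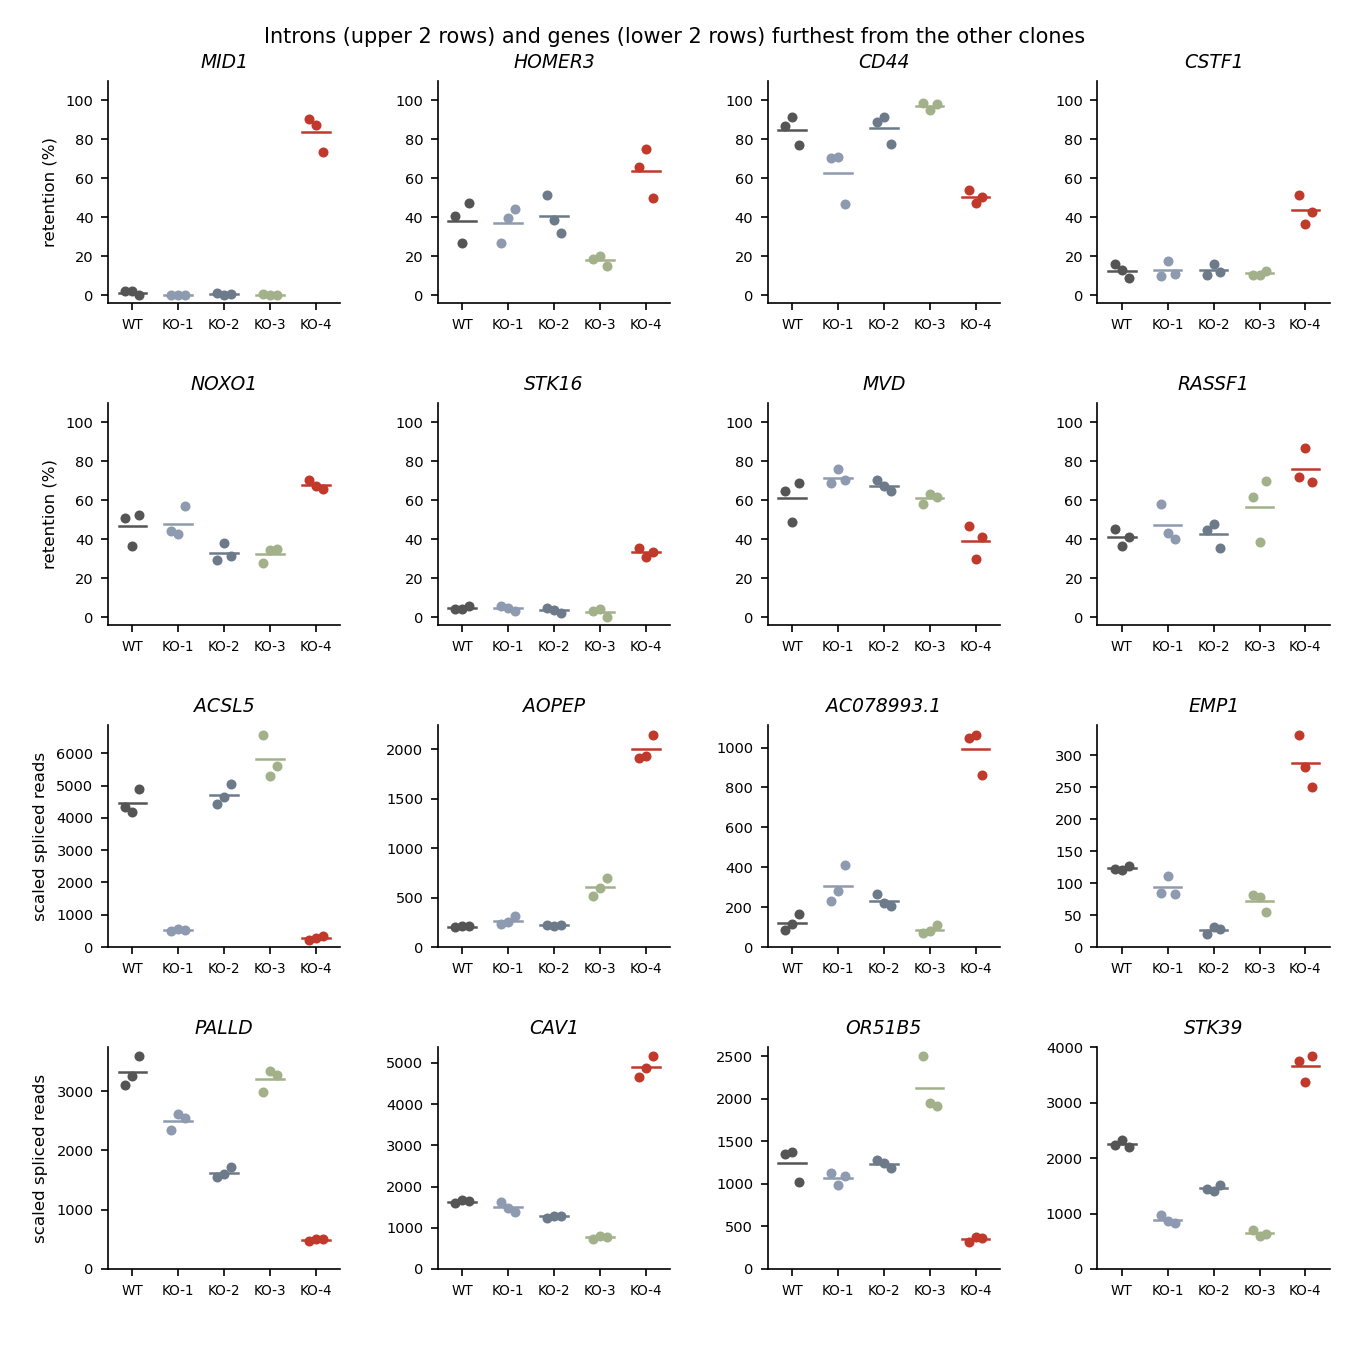
Percent retained for 8 introns (upper rows) and scaled spliced reads for 8 genes (lower rows, linear axes that differ between panels) in each library of WT and of the clones, with a line at each group's mean. These had the largest differences between KO-4 and the mean of the other clones. MID1 and STK16 are high in KO-4 alone among these libraries, and ACSL5 is low in KO-4 and KO-1.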

How the data were processed

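RNA from 3 libraries each of KO-4 and WT was analysed from the authors' deposited intron table, whose cells list whole-number read counts per library for retention and for splicing with 2 effective lengths, on hg38 coordinates. The deposited p-values and FDR in that table are the authors' and were used only as an alternative. Per the submitters' processing notes, cutadapt 2.0 and STAR 2.7.1a were used; for the counting tool, the test behind the deposited p-values and the filter of listed introns, a name was not given in the sources used here. Every listed intron had at least 20 reads in each library. Cells give libraries without a replicate number, and 1st, 2nd and 3rd mean their place in the cell. The WT counts were identical in the tables of all 4 clones.

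The percent retained was computed from the counts and lengths. Introns with means of at least 10 reads of each kind were tested with a quasi-binomial model whose dispersion was moderated by limma 3.58.1 (R 4.3.3) and not allowed under 1, with Benjamini-Hochberg adjustment and a threshold of 0.05. The same model, with equal weight to each clone, compared KO-4 with the other clones. For genes, splicing reads were summed per single gene name (3325 introns listed under several genes were left out) and divided by median-ratio size factors. Genes with a mean of at least 50 reads were tested with limma on log2 of the value plus 0.5. A count model had been planned and was not used. Intron positions and sequences are from GENCODE v29, which held 99.69% of the listed introns. The scripts were tested on simulated data.

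The comparison, gene lists, U12-type rule and tests were chosen with earlier results of these data known. The branch motif was tightened after the introns had been read. Named introns, at most 1 per gene, are the 12 largest rises and 12 largest falls in points among called introns without overlap of the groups, the 10 U12-type introns of smallest adjusted p, up to 4 per list, and the 8 introns and 8 genes furthest from the other clones; named genes are the 12 largest rises and 12 largest falls and up to 5 per list. P-values measure the spread between these libraries, and precision is limited by counting error in introns with few reads. A few items that these rules name are not reported here.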

Additional observations from a re-analysis of the deposited data

Results flagged for a closer look

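Differences between KO-4 and the mean of KO-1, KO-2 and KO-3 are listed here because the test of that difference passed and they were the largest in size. Among introns, MID1 was 83.5 points higher in KO-4, and the intron of HOMER3, a synaptic scaffold protein, from 18939050 to 18941192 was 32.0 points higher, at 63.8% ± 12.8 against 36.9%, 40.6% and 17.9%. CSTF1 was 31.2 points higher, NOXO1, an organiser of NADPH oxidase, 30.1 points higher, STK16 29.7 points higher and RASSF1 27.3 points higher. CD44 differed by -31.4 points in the intron from 35190066 to 35211245, where KO-1 (62.8% ± 13.7) lay between KO-4 and the others. MVD, an enzyme of the mevalonate pathway, differed by -27.5 points, at 39.2% ± 8.64 against 71.6%, 67.6% and 61.0%, with WT at 61.0% ± 10.7 (SD, n = 3 for each). The KO-4 libraries of MID1, CSTF1, NOXO1, STK16 and MVD lay outside the range of all 9 libraries of the other clones.

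Among genes, the log2 difference in spliced reads was -3.16 for ACSL5, 2.61 for AOPEP, 2.45 for AC078993.1, 2.36 for EMP1, an epithelial membrane protein, -2.25 for PALLD, 2.11 for CAV1, -2.0 for OR51B5 and 1.96 for STK39, a kinase that controls ion transporters. STK39 was at 3654 ± 250 in KO-4, 887, 1455 and 645 in KO-1, KO-2 and KO-3 and 2254 ± 66.5 in WT, so the other clones lay below WT and KO-4 above it. EMP1 was at 288 ± 40.8 in KO-4 and 124 ± 3.54 in WT, and at 93.3, 26.7 and 71.7 in the other clones.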

How the results depend on the processing

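Counts of introns higher and lower in KO-4 than in WT (374 and 104) moved with most settings. They were 216 and 72 with a mean of at least 50 reads of each kind, 156 and 51 at a threshold of 0.01, 190 and 259 after centring, 55 and 23 with limma on log2 odds, and 786 and 159 with the authors' deposited FDR. Leaving out 1 library gave 162 to 993 higher and 45 to 121 lower. At an unadjusted p under 0.05 the quasi-binomial test gave 2669 and 683 and limma 2272 and 633. Genes changed by at least 2-fold numbered 150 and 47; leaving out 1 library gave 1983 to 2384 genes higher and 1846 to 2287 lower. Against the other clones, introns numbered 222 and 119 with at least 50 reads, 240 and 294 after centring, 220 higher without KO-3, and 187 to 277 higher and 80 to 131 lower without 1 KO-4 library. Centring in the comparison with the clones, the fits without 1 clone, total scaling and the within-intron versions were added after seeing the data. The U12-type class measure of -0.05 became 0.34 with at least 50 reads, and 0.54 and, with at least 50 reads, 0.78 in the within-intron version. Leaving out 1 library gave -0.114 to 0.00898, the latter without the WT library listed 1st. The cause of these moves was not tested.

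Of 64 named introns, 35 kept the call without each library in turn, and 37 lost it with limma on log2 odds; of 105 named genes, 101 kept it. After centring, GAS5, RPL36, RPL10, CCNE2, KRT19, KRT18 and EXOSC10 lost it. No named intron or gene changed direction. The planned edgeR and DESeq2 fits and TMM scaling were not run. Summing all rows gave the same values, since each intron is listed once. No paired analysis was possible because the columns carry no replicate numbers. Depth limits introns with few reads, such as MID1.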

Other observations

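Some introns that are removed almost completely in WT had reads for retention in KO-4. These were picked after their values were seen. In HOMER3, the intron from 18931626 to 18931975 on chromosome 19 had 1 retention and 806 splicing reads in WT and 603 and 857 in KO-4. In SUN1, the intron from 852953 to 853408 on chromosome 7 rose from 0.36% to 11.9% (adjusted p = 4.97e-16, quasi-binomial test).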
